A study of Mus musculus with 5 samples.

Results

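H3K36me3 peaks in short protein-coding genes of mTEClo were examined. A peak was counted here when it touched, by at least 1 bp, a RefSeq protein-coding gene span shorter than 10 kb and touched no coding gene of 10 kb or longer. Of 17474 peaks in the 2 deposited lists, 314 met this rule, 134 of 7231 in series 1 (1.85%, exact binomial 95% interval 1.55 to 2.19%) and 180 of 10243 in series 2 (1.76%, 1.51 to 2.03%). They are called short-gene peaks below. The remaining peaks touched a coding gene of 10 kb or longer, a long gene, in 11232 cases, or no coding gene in 5928. Intervals cover counting error only, since peaks of 1 library share their source.

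The cells were medullary thymic epithelial cells of wild-type B6 mice, sorted as EpCAM+, UEA-1+, Ly51lo and CD80lo, and no treatment is named. The 5 samples were 1 ChIP library with an antibody to H3K36me3 in each of 2 series, and 3 input libraries made without antibody, whose reads were not analysed here. Sorting was done on individual animals, whose age is not given and which are not tied to a library, and nothing tells technical from biological spread between them. The lists hold positions and a whole-number score but no read counts. Sequencing depth is therefore unknown, and where no peak was listed the mark may still be present below detection. With 2 ChIP libraries of 1 kind no comparison below carries a test.

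H3K36me3 is the trimethyl mark placed on histone H3 by Setd2, which travels with elongating RNA polymerase II. The mark therefore builds up along transcribed gene bodies, away from the promoter and toward the 3′ end, and is read by factors that act in splicing, DNA methylation and the silencing of starts inside genes. A short gene leaves little room between promoter and 3′ end, and many genes that all cells transcribe heavily, such as those of ribosomal proteins and respiratory subunits, are short. So are large families that most tissues hardly transcribe, such as olfactory receptors.

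The starts of 6 short genes are shown, 4 with a peak in both series and 2 with a series 2 peak lying over the start window itself, because the sections on position and on CG content turn on them. Each is 300 bases, 250 before and 50 after the annotated start, 5′ to 3′ on the strand of the gene, from RefSeq on GRCm38.p6, with CG dinucleotides in capitals. The windows lie on chr6:51469845-51470144 (minus strand) for Hnrnpa2b1, chr3:86142619-86142918 (minus) for Rps3a1, chr4:136053344-136053643 (minus) for Rpl11, chr15:101712856-101713155 (minus) for Krt5, chr11:69666121-69666420 (minus) for Cd68 and chr9:19537879-19538178 (minus) for Olfr853.
Hnrnpa2b1: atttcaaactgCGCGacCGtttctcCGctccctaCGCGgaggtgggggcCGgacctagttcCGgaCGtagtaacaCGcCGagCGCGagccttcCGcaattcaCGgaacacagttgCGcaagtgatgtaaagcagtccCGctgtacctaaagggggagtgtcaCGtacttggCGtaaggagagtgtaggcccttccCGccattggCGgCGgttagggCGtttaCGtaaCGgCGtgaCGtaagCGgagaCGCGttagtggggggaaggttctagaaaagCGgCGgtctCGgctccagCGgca
Rps3a1: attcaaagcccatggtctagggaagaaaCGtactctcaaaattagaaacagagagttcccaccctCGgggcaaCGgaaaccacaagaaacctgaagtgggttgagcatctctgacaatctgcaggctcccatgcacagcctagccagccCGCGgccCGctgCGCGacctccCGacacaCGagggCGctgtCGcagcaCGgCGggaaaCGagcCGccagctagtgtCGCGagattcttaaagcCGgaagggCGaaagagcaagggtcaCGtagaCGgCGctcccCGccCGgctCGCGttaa
Rpl11: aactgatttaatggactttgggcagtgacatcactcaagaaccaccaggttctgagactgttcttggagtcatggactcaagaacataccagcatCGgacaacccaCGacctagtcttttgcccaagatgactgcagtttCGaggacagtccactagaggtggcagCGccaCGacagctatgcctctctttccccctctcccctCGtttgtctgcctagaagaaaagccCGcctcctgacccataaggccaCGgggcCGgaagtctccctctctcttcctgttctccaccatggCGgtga
Krt5: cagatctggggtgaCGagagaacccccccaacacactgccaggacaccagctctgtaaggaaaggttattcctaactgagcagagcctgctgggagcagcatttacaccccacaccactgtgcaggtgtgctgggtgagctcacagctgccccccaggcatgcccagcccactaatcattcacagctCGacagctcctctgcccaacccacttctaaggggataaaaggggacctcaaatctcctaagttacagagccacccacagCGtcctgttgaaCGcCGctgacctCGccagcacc
Cd68: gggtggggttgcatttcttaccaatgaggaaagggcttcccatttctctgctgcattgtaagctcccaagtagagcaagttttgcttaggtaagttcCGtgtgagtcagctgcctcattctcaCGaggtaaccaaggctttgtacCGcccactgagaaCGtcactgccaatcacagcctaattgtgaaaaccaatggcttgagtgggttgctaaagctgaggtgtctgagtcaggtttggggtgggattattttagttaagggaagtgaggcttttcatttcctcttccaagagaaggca
Olfr853: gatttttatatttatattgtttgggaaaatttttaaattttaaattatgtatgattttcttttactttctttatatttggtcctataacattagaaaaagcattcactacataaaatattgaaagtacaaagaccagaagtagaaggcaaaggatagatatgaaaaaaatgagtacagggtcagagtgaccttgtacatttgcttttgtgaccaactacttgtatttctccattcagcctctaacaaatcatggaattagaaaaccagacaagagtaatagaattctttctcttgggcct
These windows hold 34 CG dinucleotides for Hnrnpa2b1, a splicing regulator, 27 for Rps3a1 and 10 for Rpl11, which encode ribosomal proteins, and 6 for Krt5, the basal keratin of stratified and medullary epithelium. Cd68, a macrophage glycoprotein, has 4 and Olfr853, an olfactory receptor, has 0.

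Short genes were seldom hit, but per base they were covered nearly as much as long ones. Among 7924 short genes, 135 held a short-gene peak in series 1 (1.7%), 174 in series 2 (2.2%), 30 in both (0.379%) and 279 in either (3.52%). Over all 21883 coding genes the shares with at least 1 bp of any peak were 16.3%, 19.5%, 8.42% and 27.4%. Measured by territory, 0.267% of the 30.4 Mb of short-gene sequence lay under peaks in series 1 and 0.202% in series 2, a mean of 0.235% ± 0.0461 (SD, n = 2). In the 1001 Mb of long genes the values were 0.318% and 0.226%, 0.272% ± 0.0656 (SD, n = 2), which is 1.19-fold and 1.12-fold above short genes in the same library. Long genes were the higher in both libraries, by less than the libraries differed from each other. Outside all annotated genes the covered share was 0.0696% and 0.0630%, which puts short genes 3.84-fold higher in series 1 and 3.21-fold higher in series 2. Genes that code for no protein stood at the level outside genes, with 0.0658% and 0.0633%.

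The share of genes hit climbed with length even below 10 kb. Of 2583 genes under 2 kb, 1 had a peak in series 1 (0.0387%, 95% interval 0.00098 to 0.216%) and 6 in series 2 (0.232%, 0.0853 to 0.505%). From 4 to 6 kb the shares were 2.15% and 2.42% of 1489 genes, and from 8 to 10 kb 5.12% and 5.51% of 1016. All intervals of the shortest class lay below those of the 8 to 10 kb class, in each series. Of the 30 genes hit in both series, 1 was between 2 and 4 kb long, 6 between 4 and 6 kb, 10 between 6 and 8 kb and 13 between 8 and 10 kb. Territory behaved likewise: with the limit set at 5 kb the covered share was 0.117% in series 1 and 0.122% in series 2. The limit of 10 kb marks no step when any peak is counted, also one that touches a long gene. Of the 151 genes up to 300 bp below it 13 were then hit in each series. Of the 170 genes up to 300 bp above it 13 were hit in series 1 and 14 in series 2.

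**Figure D1:**
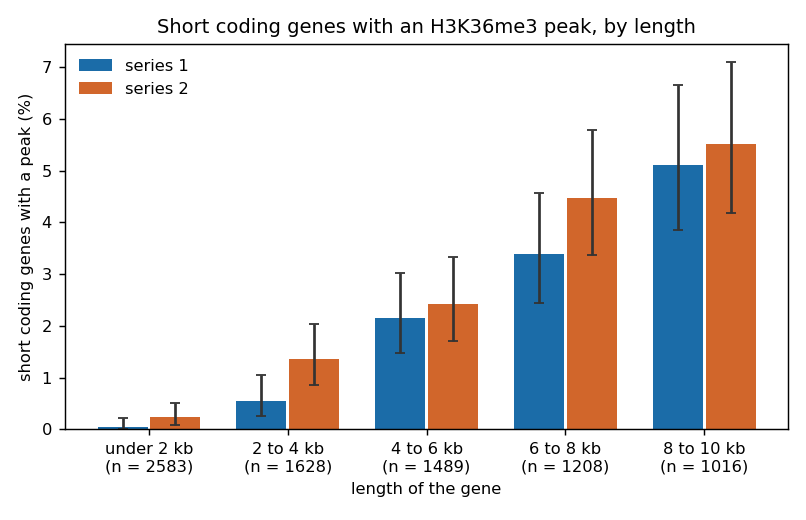
Share of short coding genes with a peak, in percent (vertical axis, from 0), by length of the gene (5 classes, with their number of genes), for series 1 and series 2; error bars are exact binomial 95% intervals. In both series the bars climb from under 0.3% below 2 kb to over 5% between 8 and 10 kb.

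Within short genes, peaks lay toward the 3′ end and almost never at the start. Strand was known for 6411 of the 7924 short genes (80.9%), which left 112 pairs of a peak and a gene in series 1 and 151 in series 2. Midpoints lay on the 3′ side of the gene's centre in 77.7% of pairs in series 1 (95% interval 68.8 to 85.0%) and 70.9% in series 2 (62.9 to 78.0%), at a median of 70.8% and 63.6% of the way from start to end. In long genes the shares were 61.7% (60.2 to 63.2%) and 59.2% (57.8 to 60.5%). Both intervals of the short genes thus lay above those of the long genes. When genes were divided into 5 equal parts, the part at the 5′ end held 2.68% of midpoints in series 1 and 7.28% in series 2 in short genes, against 11.96% and 12.9% in long ones. In genes of 10 to 20 kb this part held 6.33% and 6.14%, above the short genes in series 1 and below them in series 2. In short genes the fourth part held 32.1% and 27.8% of midpoints.

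Where no other coding gene lies within 5 kb, 69.4% of 36 pairs in series 1 (51.9 to 83.7%) and 73.3% of 45 pairs in series 2 (58.1 to 85.4%) lay on the 3′ side. On so few pairs the intervals of both series include the share of long genes. Genes of 10 to 20 kb, the next length class, had 64.6% (59.6 to 69.5%) and 68.2% (63.6 to 72.5%), whose intervals overlap those of the short genes in both series. Peaks stayed inside genes of 10 to 20 kb in 95.5% and 97.3% of pairs, and inside long genes in 98.8% and 99.2%. Inside short genes they stayed in 88.4% and 90.7%. The start was crossed in 0 of 112 pairs in series 1, which allows a share of up to 2.68% (3 counts of 112) or, by the exact interval, 3.24%, and in 2 of 151 in series 2. In long genes the start was crossed in 0.0746% and 0.0595% of pairs. The end of short genes was crossed in 13 pairs of series 1 (11.6%) and 12 of series 2 (7.95%), against 1.09% and 0.734% in long genes. No peak covered a whole gene.

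**Figure D2:**
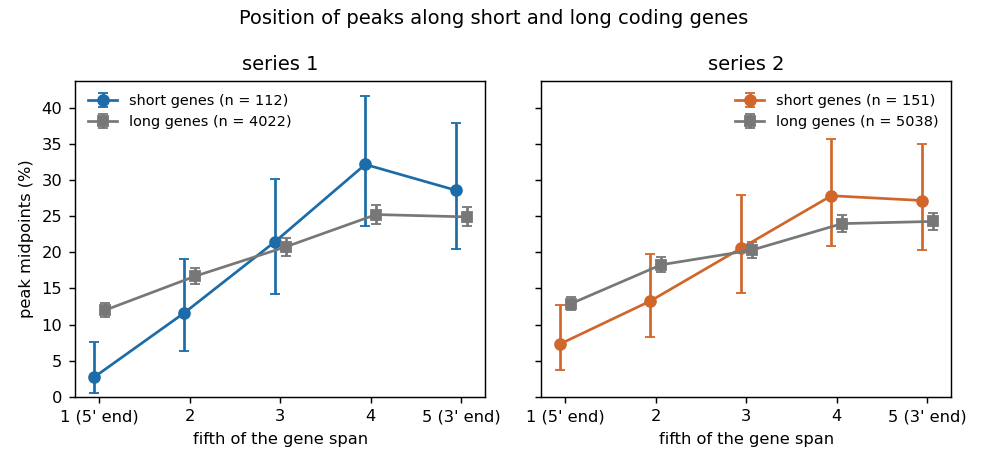
Percentage of peak midpoints (vertical axis, from 0) in each of 5 equal parts of the gene span from the 5′ to the 3′ end, for short genes (coloured circles) and long genes (grey squares), with exact binomial 95% intervals; left series 1, right series 2. Short genes hold 2.68% and 7.28% of midpoints in the 5′-most part against 11.96% and 12.9% in long genes.

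Start windows of short genes were touched by 1 of 134 short-gene peaks in series 1 and 3 of 180 in series 2. The series 1 peak belonged to Cnpy4, whose neighbour Mblac1 starts beyond it, and overlapped the Mblac1 window by 93 bp. In series 2 the peak at Cd68 (chr11:69665791-69666159, score 18) reached 39 bp into the window printed above and ended inside the gene. Both peaks that crossed a start belonged to olfactory receptors: Olfr853 (chr9:19537710-19537930, 221 bp, score 21) and Olfr1389 (chr11:49430399-49430627, 229 bp, score 28). Neither receptor had a peak in series 1. As a share, 0.746% of short-gene peaks in series 1 (0.0189 to 4.09%) and 1.67% in series 2 (0.345 to 4.79%) touched a start window. Long-gene peaks touched start windows of long genes in 0.140% (0.0561 to 0.287%) and 0.0804% of cases (0.0261 to 0.188%). Short-gene peaks thus touched start windows more often in series 2, while in series 1 the intervals overlap.

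In width and score, short-gene peaks resembled those of long genes in series 2 and scored higher in series 1. Widths had a median of 482 bp in series 1 (interquartile range 321 to 874 bp) and 223 bp in series 2 (219 to 363 bp), against 525 bp and 223 bp for peaks in long genes. The score is the authors' own value for a peak and is used only within a list. Scores of 50 or more were given to 14.9% of short-gene peaks in series 1 (9.36 to 22.1%) and to 6.26% of long-gene peaks (5.61 to 6.97%), while in series 2 the shares were 2.78% (0.908 to 6.36%) and 2.62% (2.24 to 3.05%). At least 1 kb of width was reached by 23 short-gene peaks in series 1 and 9 in series 2. In series 2, 70.0% of short-gene peaks were narrower than 250 bp, as were 70.4% of those in long genes. In series 1 the shares were 2.99% and 7.56%. The median covered share among genes hit was 7.46% in series 1 and 3.98% in series 2, against 1.13% and 0.590% in long genes. This order follows from the length limit, since peaks of similar width take up more of a shorter span. Of the genes hit, 51 in series 1 and 30 in series 2 had at least 10% of the span under peaks.

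Peaks of the 2 series coincided more often in short genes than in the lists as a whole. There were 20 pairs of overlapping peaks, 14.9% of the short-gene peaks of series 1 (95% interval 9.36 to 22.1%) and 11.1% of those of series 2 (6.92 to 16.6%). Over all peaks 4.98% and 3.52% touched a peak of the other list. In long genes the shares were 6.38% (5.72 to 7.09%) and 5.15% (4.61 to 5.73%), so the intervals of the 2 classes did not meet in either series. These shares count overlaps of 1 bp or more. With 50% of both peaks required they fell to 8.21% (4.17 to 14.2%) and 6.11% (3.09 to 10.7%) in short genes, and to 2.61% (2.19 to 3.09%) and 2.11% (1.76 to 2.50%) in long genes. With the length limit at 15 kb and overlaps of 1 bp or more, 12.8% (41 of 321) and 9.95% (41 of 412) were shared. The higher share thus did not stop at 10 kb. With the limit at 5 kb 13.6% (3 of 22) and 7.14% (3 of 42) were shared. Overlapping short-gene peaks had a median score of 51 in series 1 and 25 in series 2, against 23 and 16 for those without a partner. Counted by gene rather than by peak the order turned round: the 30 genes hit in both series were 22.2% of the short genes hit in series 1 and 17.2% of those hit in series 2, against 52.8% and 44.5% for long genes, each of which can hold many peaks. Among the 30 genes, 20 had peaks that overlap between the series. In the other 10 the nearest peaks of the series lay 31 to 4596 bp apart.

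The 30 genes are described by their roles, which follow no fixed list. Those of ribosomes and translation come first. Rps3a1, a protein of the small ribosomal subunit on chromosome 3 from 86137940 to 86142668 (mm10), was covered over 30.3% of its length by 2 peaks in series 1 and over 8.84% by 1 peak in series 2, 19.6% ± 15.2 (SD, n = 2). One of them, at chr3:86138156-86138520, had the highest score of all short-gene peaks of series 1, 115. Rpl11, of the large subunit, on chromosome 4 from 136049354 to 136053393, was covered over 8.66% and 24.9%. These covered shares differ between the series by more than 2-fold in opposite directions, and the mean says little about either library. Reads of ribosomal protein genes can also match their many processed copies, so that their placement is uncertain. Sbds, a ribosome maturation factor on chromosome 5, held the widest short-gene peak of series 1, 2248 bp, which contained the whole of its 999 bp peak in series 2. Eif3f, a subunit of the initiation factor that brings messenger RNA to the small ribosomal subunit, had 5.42% and 7.28% of its span covered, with midpoints at 83.7% and 83.9% of the gene. Tbl3, a factor of ribosomal RNA processing, had 3.80% and 15.6%. Mrps30 and Mrpl50, proteins of the mitochondrial ribosome, had 11.7% and 3.15%, and 7.40% and 1.94%.

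Among the 30 were also 5 genes of messenger RNA splicing or its protein complexes, with mean covered shares from the second highest to the second lowest of the 30. Hnrnpa2b1, which encodes an hnRNP protein that binds nascent transcripts, was the one gene with 2 peaks in each series that pair up. One pair lay at the 3′ end (chr6:51460922-51461837 in series 1 and chr6:51459841-51461117 in series 2) and the other near the middle (chr6:51465246-51466477 and chr6:51465685-51466263). Neither reached the start window printed above. Only Hnrnpa2b1 and Sbds, of the 30, had at least 10% of the span covered in both series. Pnn, which encodes the splicing and cell adhesion protein pinin, had 11.4% and 5.78%, in neighbouring peaks 31 bp apart. Prpf38b, a pre-mRNA splicing factor, had 7.69% and 3.90%, with scores of 59 and 61. Magoh, a core part of the exon junction complex, had 3.09% and 2.88%, and Snrpb2, a protein of the U2 snRNP, had 2.79% and 2.44%, both in places that do not overlap between the series.

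The basal keratin gene Krt5, on chromosome 15 from 101707069 to 101712905, had 1 peak in each series with scores of 104 and 76, the second the highest of all short-gene peaks of series 2. The series 1 peak (chr15:101709373-101709697) lay wholly within that of series 2 (chr15:101709275-101709829), with midpoints at 57.7% and 57.5% of the gene, 7.54% ± 2.79 of the span on average (SD, n = 2). S100a11, a calcium-binding protein abundant in epithelium, had peaks over 7.49% and 6.59% of its span, with scores of 60 and 52, that shared 369 bp near the 3′ end. Tap1, a subunit of the transporter that loads peptides for MHC class I, had 3.57% and 3.26%, in peaks that shared 293 bp. Of the 30 genes, 12 have another coding gene within 1 kb. Among them are Tap1 (226 bp away), Sbds (42 bp) and Hnrnpa2b1 (106 bp). Herpud1, of the degradation of misfolded proteins at the endoplasmic reticulum, had 2.95% and 10.0% in peaks 459 bp apart.

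The rest of the 30 serve varied cell functions. Vamp2, a SNARE protein of vesicle fusion, had 19.0% and 9.83% of its span covered. Cybc1, a chaperone of the phagocyte oxidase, had 17.3% and 3.32%, and Slc35b1, a nucleotide transporter of the endoplasmic reticulum, had 16.3% and 3.16%, both without overlap between the series. Zfp93, a zinc finger gene, held the second highest score among short-gene peaks of series 1, 110. That peak contained its series 2 peak of score 51. Rgl2, an exchange factor of Ral GTPases, and Erg28, of sterol synthesis, had almost the same covered share in both series, 2.92% and 3.01%, and 2.38% and 2.40%. Shfl and Angptl6 overlap each other and share 1 peak in each list, so that it counts for both. Chchd2 had 13.1% in series 1 but only 1 bp of a peak in series 2. Lrrc47, Nudt14, the zinc importer gene Slc39a1 and the mitochondrial PEP carboxykinase gene Pck2 had covered shares from 2.21% to 6.75%. Mrgprd, a receptor of sensory neurons, had 3.18% and 2.40%, in peaks that did not overlap. Of the 30 genes, 22 were better covered in series 1 and 8 in series 2.

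**Figure D3:**
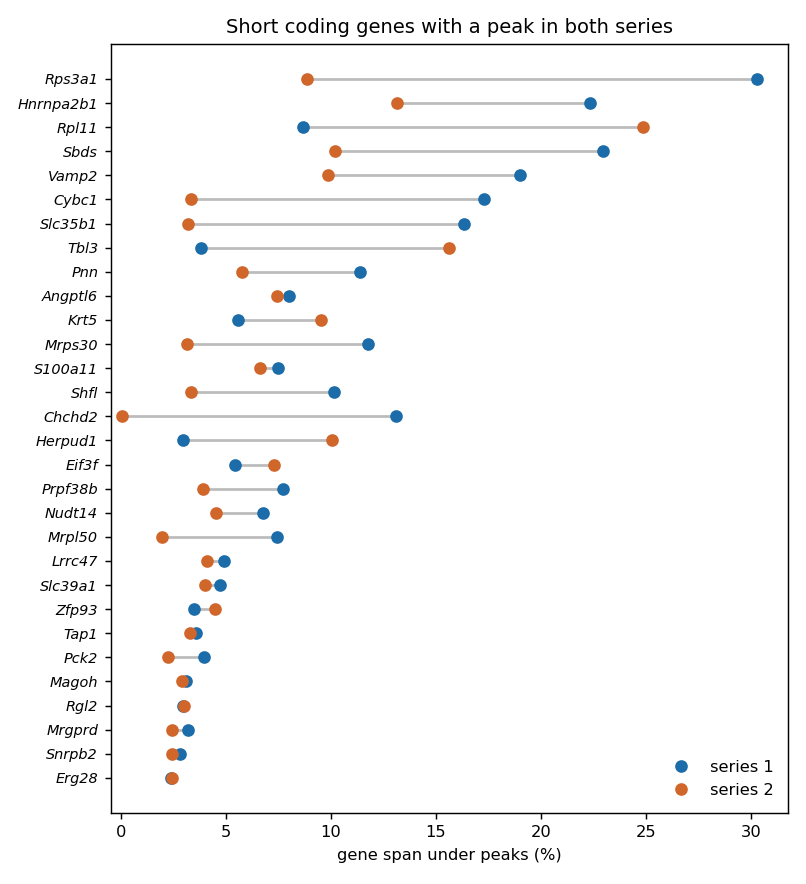
Percentage of the gene span under peaks (horizontal axis, from 0) for the 30 short coding genes with a peak in both series, sorted by the mean; each gene has 1 point for series 1 (blue) and 1 for series 2 (orange), joined by a line. Rps3a1 and Rpl11 are far apart between the series, while S100a11, Tap1, Rgl2 and Erg28 nearly coincide.

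Many of the best covered short genes had a peak in 1 series alone. In series 1, Sap25, a corepressor subunit, had the largest covered share, 47.6% of its 1.43 kb, under a peak that also touches Irs3. It was followed by Rpl37a with 37.6% and Ndufa3, a subunit of respiratory complex I, with 36.1% and a score of 77. Snrpb, a core protein of spliceosomal snRNPs, held the second widest short-gene peak, 1566 bp over 20.2% of the gene. Nop53, a ribosome assembly factor, held the third at 1460 bp. In series 2, Xbp1, the transcription factor of the unfolded protein response, held the widest short-gene peak, 1989 bp. Of this, 1879 bp lay in the gene and made up 35.1% of its span. Usp27x, a ubiquitin protease gene on the X chromosome, had 33.7%, Srsf6, an SR splicing factor, 31.7%, and Tufm, the mitochondrial elongation factor, 26.1%. None of these genes had a short-gene peak in the other series, so each rests on 1 library.

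Gene families fixed by symbol were counted against the 3.52% of all short genes with a peak in either series. The whole interval lay above 3.52% for splicing proteins, both classes of ribosomal proteins, respiratory proteins and translation factors. Of 25 short genes of hnRNP, SR and snRNP proteins, 6 were hit in series 1, 4 in series 2 and 8 in either (32.0%, 14.9 to 53.5%). Of 55 mitochondrial ribosomal protein genes 8 were hit in either (14.5%, 6.50 to 26.7%), of 86 ribosomal protein genes 10 (11.6%, 5.72 to 20.3%), and of 67 genes of the respiratory chain and ATP synthase 7 (10.4%, 4.30 to 20.3%). Translation factors had 4 of 23 (17.4%, 4.95 to 38.8%), of which Eef1akmt3 is a lysine methyltransferase gene caught by its symbol. Without it 3 of 22 were hit (13.6%, 2.91 to 34.9%), an interval that includes 3.52%. Matching by symbol also left genes out. Tufm, an elongation factor hit in series 2, is not among the translation factors. Snrnp27, an snRNP protein hit in series 1, is not in the splicing family. The shares thus describe the lists and not whole families. The share of proteasome genes was 3 of 21 (14.3%, 3.05 to 36.3%), namely Psme3, Psmd6 and Psmc4. The respiratory genes hit were Ndufa3, Ndufs5 and Atp5g2 in series 1 and Ndufb10, Ndufb2, Sdhd and Cox6b1 in series 2. None was hit in both, where 22.2% and 17.2% of all short genes hit in a series were hit in the other. Median lengths were 6.41 kb for the splicing family, 5.43 kb and 3.15 kb for mitochondrial and cytoplasmic ribosomal proteins, and 3702.5 bp for all short genes, and length was not matched in these counts.

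For proteasome genes and the other families the interval included 3.52%, or in 1 case lay below it. Chemosensory receptors, 1363 genes with a median length of 0.945 kb, had 1 gene hit in series 1, 7 in series 2 and none in both, 0.587% in either (0.254 to 1.15%). Of all genes under 2 kb, 0.0387% were hit in series 1 and 0.232% in series 2, against 0.0734% and 0.514% of the receptors. Without them 4.13% of the remaining 6561 short genes were hit in either series. No core or linker histone gene of 98 was hit, which allows up to 3.06% by the limit of 3 counts and 3.69% by the exact interval. None of 32 MHC genes was hit, which allows up to 9.38% and 10.9% by the same limits. Histone genes here have a median length of 0.495 kb, a length at which few genes of any kind had a peak. Keratins had 1 of 42, Krt5, and the keratin associated, cornified envelope and S100 genes had 1 of 102, S100a11. Heat shock and DnaJ genes had 2 of 27, Dnajb1 and Dnajb2, tubulins and actins 1 of 24, Rnf, Trim and ubiquitin pathway genes 4 of 74, and serpins, kallikreins and defensins 3 of 160. Immediate early genes had 1 of 29, Zfp36, an RNA-binding protein that the zinc finger family also lists, with 6 of 79. The homeobox, Sox and Fox list had none in series 1. In series 2 it had Sox9, Hoxa2 and Nkx6-1, each under a narrow peak of 219 to 224 bp. Matching by symbol left out the homeobox genes Otx1 and Pbx2, named here after their values were seen. Otx1 had a 384 bp peak with a score of 75 in series 1, and Pbx2 a 1146 bp peak in series 2. Chemokines and interleukins had Il10 and Ccl9, in series 2 only.

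**Figure D4:**
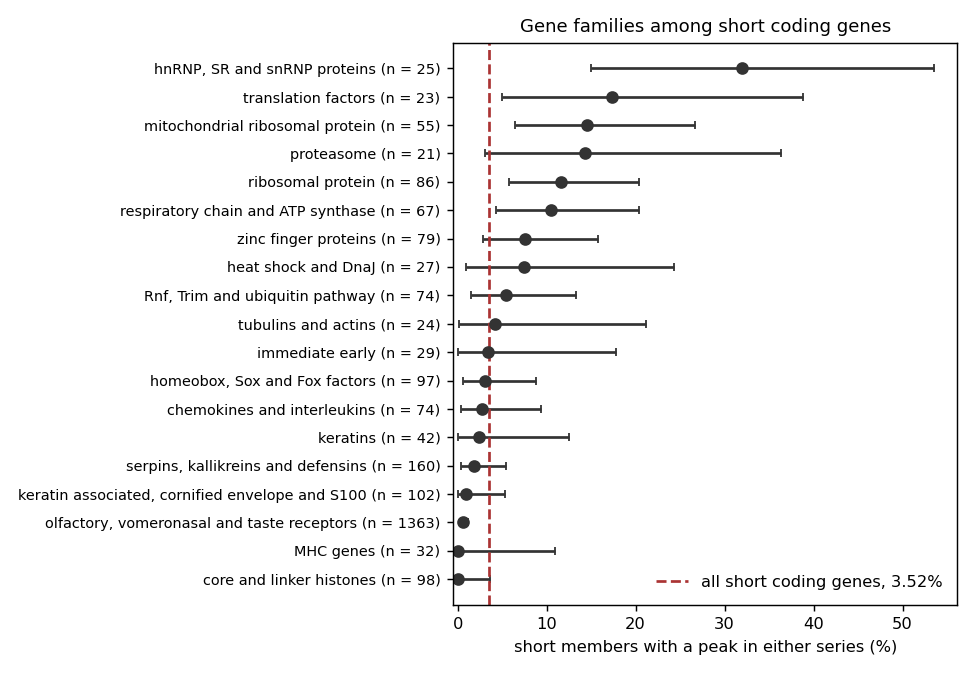
Percentage of short members of each gene family with a peak in either series (horizontal axis, from 0), with exact binomial 95% intervals and the number of short members in brackets; the dashed line marks the 3.52% of all short coding genes. The splicing family stands highest at 32.0%, and chemosensory receptors stand at 0.587%.

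Short genes with a peak had starts rich in CG, a feature that the choice of peaks did not use. In the 300-base start windows of RefSeq, genes hit in either series had a median of 19 CG dinucleotides (interquartile range 10 to 26, 229 of 279 genes with a window). Short genes hit in no series had a median of 5 (2 to 17, 6182 genes), or 8 (3 to 19) once chemosensory receptors were left out, which leaves the median of genes hit at 19 (11 to 26). At least 10 CG were present in 78.6% of windows of genes hit (72.7 to 83.7%) and 37.2% of those not hit (36.03 to 38.5%). The 25 genes with a window among those hit in both series and the 204 hit in 1 series had the same median, 19. Genes hit in series 1 alone had a median of 19 and those hit in series 2 alone 18. Among genes of 4 to 10 kb outside the receptor family, 82.1% of those hit (75.9 to 87.2%) and 53.1% of those not hit (51.2 to 55.0%) had 10 or more, so within this narrower range of lengths the intervals stayed apart.

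Long genes hit had a median of 21, and long genes not hit 14. The letters TATAAA on either strand occurred in 7.42% of windows of short genes hit (4.38 to 11.6%) and in 21.9% of those not hit (20.8 to 22.9%), and in 21.3% of all short-gene windows. In windows of 4 to 10 kb genes outside the receptor family the shares were 5.64% (2.85 to 9.87%) and 13.1% (11.9 to 14.5%). Of the 25 genes hit in both series with a window, 5 had fewer than 10 CG: Mrgprd with 2, Angptl6 with 5, Krt5 with 6, Cybc1 with 7 and Pck2 with 9. Erg28 has 36, the most among the 25. A match is a description of letters and not of a bound factor.

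**Figure D5:**
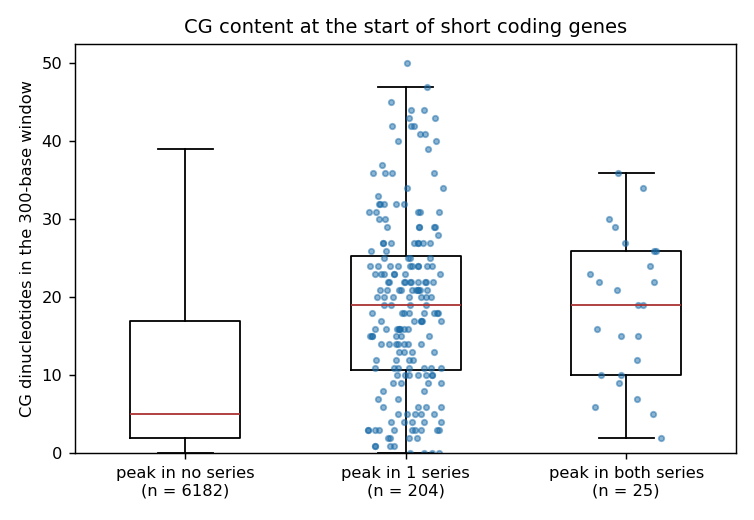
Number of CG dinucleotides in the 300-base start window (vertical axis, from 0) of short coding genes with a peak in no series, 1 series or both series; boxes give the median and quartiles, whiskers reach 1.5 times the interquartile range, points are single genes of the 2 groups with a peak, and values past the whisker are not drawn for genes with no peak. Medians are 5, 19 and 19.

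Short genes with a peak in either series more often had another coding gene within 5 kb. Another coding gene lay within 5 kb of 69.5% of those hit in either series (63.8 to 74.9%), 60.0% of those hit in both (40.6 to 77.3%) and 46.3% of all short genes (45.2 to 47.4%). The interval of those hit in both includes the share of all short genes. Overlap with another coding gene was found for 18.3% of those hit in either (13.9 to 23.3%) and 16.0% of all short genes (15.2 to 16.8%). The median length was 7130 bp for genes hit and 3548 bp for the rest. Neither length nor the chemosensory family was matched in these shares. Of the peaks, 36.6% in series 1 and 30.0% in series 2 lay within 5 kb of a long gene that they did not touch, and 5 and 7 peaks lay within 1 kb. In 5 cases of 314, 1 peak touched 2 short genes. Signal that reaches over from a neighbour was not tested. Another 22 short genes were touched only by a peak that also touches a long gene and are not counted here.

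Markers were checked as far as they are short, since the label says medullary epithelium. Of 10 short marker genes of that tissue, Krt5 had peaks in both series and Krt14, Krt8, Krt18, Krt19, Ccl21a, Cldn3, Cldn4, Ly6d and Sfn had none. Among 4 short genes of mature medullary cells, Fezf2, H2-Aa, H2-Ab1 and Cd74, none was hit. Of 4 cortical genes Dll4, a Notch ligand, had 1 peak of 465 bp in series 2. No short gene on the marker lists of thymocytes (5 genes), myeloid and dendritic cells (4), fibroblasts (1), endothelium (1) or erythroid cells (3) had a peak. Outside those lists, 3 examples from macrophages, monocytes and dendritic cells, named after their values were seen, had a peak in series 2 alone. They were Cd68, Ccr2 with 12.3% of its span covered and a score of 12, and Cd209d with 3.27% and a score of 44. This is not a full count. Lilra5, a leukocyte receptor, had a 368 bp peak with a score of 15 in series 1 alone. C5ar2, a complement receptor, had a 219 bp peak in series 2 alone. The part of these genes in the results was not tested. Of 3 B cell markers, Cd79b had a 219 bp peak with a score of 18 in series 2 alone. At these lengths an empty list says little, since 1.7% and 2.2% of all short genes were hit. Ins2, an antigen of pancreatic islets that medullary cells display, is 1.07 kb long and had no peak.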

How the data were processed

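H3K36me3 ChIP of sorted mTEClo was profiled in 2 series, with 3 inputs. The submitters' processing notes name Bowtie2, SAMtools, MACS2 and mm10, with no version or setting. The authors deposited 1 list of broad peaks per ChIP library, with a score per peak whose meaning is not stated. Per the peak names in the files, series 1 was called against 2 inputs together and series 2 against 1.

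Gene spans came from RefSeq on GRCm38.p6 (coding genes of the 19 autosomes, X and Y), and strand from its start windows, the first per gene. Exons and introns were not used here. Territory outside genes ran from the first to the last annotated gene of a chromosome. Intervals are exact (Clopper-Pearson, 95%). Positions are given in 5 parts of the gene where parts of another size had been planned. The peaks, 19 families and comparisons were chosen with earlier results of these data known.

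Genes named are those hit in both series, the best covered, highest scoring and widest of each series, up to 4 per family, short cell type markers and Ins2. Where a family's hits are listed in full, names were added after their values were seen. Work used Python (3.11.15) with numpy (2.4.6), pandas (2.3.3) and, for intervals, scipy (1.17.1). The assignment was tested on simulated peaks, 200 per class, and 100% went to the right class. Alternatives were other limits on score, width, gene length, overlap and neighbours, and leaving out each series.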

Additional observations from a re-analysis of the deposited data

How the results depend on the processing

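At both score limits over 70% of midpoints stayed on the 3′ side in each series. With scores of at least 20, and then 50, the covered share of short-gene territory was 0.186% and 0.0344% in series 1, 0.0684% and 0.00823% in series 2 and 0.127% and 0.0213% on average. Short genes hit numbered 67 in series 2, 13 in both and 144 in either at 20, and 21, 5, 4 and 22 in series 1, series 2, both and either at 50. Short-gene peaks were 2.23% and 4.42% of the series 1 list. At 50, 80.0% of the 5 remaining peaks of series 2 were shared, and of the 4 with a strand 100% lay on the 3′ side. With peaks of at least 250 bp only, series 2 had a share of 2.31% of its list, 25.9% shared and 83.0% on the 3′ side. Its median width was 573 bp, with 0.112% of territory (mean 0.188%) and 53 genes, 16 in both series and 168 in either. In series 1 the shared part fell under this limit, to 10.8% (14 of 130) from 14.9%.

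With a limit of 5 kb, short-gene peaks were 0.304% and 0.410% of the lists, 0.117% and 0.122% of territory (mean 0.120%), and genes hit 23, 41, 3 and 61 (series 1, series 2, both, either). With 15 kb the values were 4.44% and 4.02%, 0.368% and 0.272% (mean 0.320%), and 309, 386, 73 and 622. At 10% of the span under peaks 51, 30, 2 and 79 genes remained to be counted, and without coding neighbours within 5 kb 40, 57, 12 and 85. Requiring an overlap of 50% of both peaks left 8.21% and 6.11% shared. Leaving out a series gave 135 to 174 genes in place of 279 and 0.202 to 0.267% of territory. The lower counts follow from fewer peaks or genes entering. Requiring 50% of the peak inside the gene, or counting any peak, moved no count by over 1.5 times. Translation factors without Eef1akmt3, chosen after seeing the data, had 13.6% in place of 17.4%. No paired analysis was possible because no groups were compared and input libraries have no peak lists here. Unknown depth limits all absences.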

Other observations

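Small RNA genes lay under a few short-gene peaks. In series 1, a peak in Rps3a1 touched 71 bp of Snord73b, a small RNA gene, and the peak at Tcp1, a subunit of the cytosolic chaperonin, touched 61 bp of Snora20. In series 2, narrow peaks touched 16 bp of Snora33 in Rps12 and 61 bp of Mir7022 in Fbxo6. In all, 1 short-gene peak of series 1 and 3 of series 2 touched a gene annotated as snoRNA, and 3 and 5 touched a long non-coding RNA gene. No snoRNA or microRNA gene was touched in both series.

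Some genes of lymphotoxin and interferon signalling, of transcription and of autophagy, chosen after their values were seen, had a short-gene peak in 1 series, as did 249 of the 279 short genes hit. In series 1, Ltbr, the lymphotoxin beta receptor, had 10.3% of its span under a peak, Nfkbie, an inhibitor of NF-kappaB, 15.2%, Irf1, an interferon-responsive transcription factor, 16.4% under a peak of 1373 bp, and Spib, an Ets factor, 4.17%. Eomes, a T-box factor, had 5.11%, with a score of 40. In series 2, Gabarap, an autophagy protein of the Atg8 family, had 6.06% and Atg101 3.34%.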
